A study of Homo sapiens with 19 samples.

Results

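Ribosome biogenesis was followed through 44 genes, taken by symbol from a deposited table of 23367 genes for their roles in RNA polymerase I, pre-ribosomal RNA processing and nucleolar assembly. All 44 are in the table, and all 44 passed the filter on low counts that left 14793 genes for testing. By role they fall into 8 genes of RNA polymerase I and its initiation factors, 4 of the box C/D and 5 of the box H/ACA small nucleolar ribonucleoproteins (snoRNPs), 10 factors of the small subunit, 13 of the large subunit and 4 nucleolar proteins that act in several steps.

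The cells were SHEP TET21N, an established human neuroblastoma line engineered to carry a MYCN transgene that doxycycline represses. MYCN belongs to the MYC transcription factors. MYCN-high cells grew without doxycycline and MYCN-low cells with it, so doxycycline is part of each comparison between the states. In each state RNA was sequenced before treatment, at the end of 72 h of doxorubicin at 0.1 µg/ml, and at 3, 8 and 14 days of recovery once the drug had been washed out. The 10 groups held 2 biological replicates each, named B and C, except MYCN-low cells at 14 days, which had replicate B alone. No untreated cells were matched to the later times, so time in culture and drug cannot be told apart. A single engineered line was used, and doxorubicin itself is an anthracycline that breaks DNA by trapping topoisomerase II.

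Ribosomes are assembled in the nucleolus. RNA polymerase I transcribes the ribosomal DNA into a long precursor, snoRNPs guide its methylation and pseudouridylation, and processing factors cut and fold it into the small and large subunits. MYC proteins are known activators of these genes, and DNA-damaging anthracyclines are known to disturb the nucleolus. The files hold messenger RNA levels of the factors, not the ribosomal RNA that they make.

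MYC proteins bind the E-box CACGTG, usually near the start of a gene, so the promoter windows of the members were read first. Windows of 250 bases before to 50 bases after an annotated start came from RefSeq, build GRCh38.p14, and 36 of the 44 members had at least 1 window, 47 windows in all. Members without one were RRP12, RRS1, BOP1, TCOF1, NOLC1, DDX18, NOP58 and POLR1E. CACGTG reads the same on both strands, and CACGCG was searched on both. The windows of 16 members held CACGTG, 44.4% of the 36, against 12.2% of the 10036 tested genes with a window. CACGCG was in windows of 15 members, 41.7%, against 21.9% of those tested genes. Counted per window, CACGTG was in 36.2% of the members' 47 windows against 7.26% of all 35116, and CACGCG in 34% against 11.4%.

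The sequences of FBL and UTP20 are shown whole, since their responses to the drug differed between the MYCN states, and that of POLR1B because it differed most between the states before treatment and holds no E-box. Each runs 5′ to 3′ on the strand of its gene, and capitals mark CACGTG.
FBL, chr19:39846330-39846629, minus strand: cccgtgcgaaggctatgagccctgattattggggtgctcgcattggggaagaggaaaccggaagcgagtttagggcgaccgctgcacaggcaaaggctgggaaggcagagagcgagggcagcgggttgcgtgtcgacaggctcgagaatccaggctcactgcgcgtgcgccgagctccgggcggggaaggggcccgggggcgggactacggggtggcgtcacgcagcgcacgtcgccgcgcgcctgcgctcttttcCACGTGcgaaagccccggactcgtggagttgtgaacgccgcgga
UTP20, chr12:101279855-101280154, plus strand: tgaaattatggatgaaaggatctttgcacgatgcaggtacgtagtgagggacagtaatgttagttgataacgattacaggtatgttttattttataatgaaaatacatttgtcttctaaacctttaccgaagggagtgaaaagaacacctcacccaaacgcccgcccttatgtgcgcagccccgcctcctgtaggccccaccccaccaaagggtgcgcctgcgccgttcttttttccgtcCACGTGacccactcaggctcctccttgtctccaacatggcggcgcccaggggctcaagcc
POLR1B, chr2:112542215-112542514, plus strand, 1 of 2 windows: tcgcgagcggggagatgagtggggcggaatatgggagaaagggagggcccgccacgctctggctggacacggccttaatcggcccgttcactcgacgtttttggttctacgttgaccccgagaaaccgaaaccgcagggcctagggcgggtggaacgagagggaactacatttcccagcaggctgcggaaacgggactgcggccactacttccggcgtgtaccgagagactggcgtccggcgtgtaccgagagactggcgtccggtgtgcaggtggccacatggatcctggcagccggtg

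Short stretches around the E-box are given for the other members whose responses differed between the states, for NOP10, which did not pass the threshold between untreated states, and for GNL3, BYSL and NOP2, the extremes of their roles. In each line the E-box is in capitals, and positions count from 1 at the annotated start site, with no position 0.
WDR43, chr2:28894658-28894687, plus strand, position 4: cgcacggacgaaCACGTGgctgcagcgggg
EBNA1BP2, chr1:43172241-43172260, minus strand, position 43: gcgattcggtggCACGTGga
EBNA1BP2, upstream window, chr1:43172790-43172819, minus strand, position -237: gatattgttggcCACGTGggatcgaagacc
MRTO4, chr1:19251807-19251836, plus strand, position 15: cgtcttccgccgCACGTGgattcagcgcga
NOP10, chr15:34343130-34343159, minus strand, position -11: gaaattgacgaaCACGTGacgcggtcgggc
NOP10, chr15:34343289-34343318, minus strand, position -170: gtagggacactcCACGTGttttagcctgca
GNL3, chr3:52686026-52686055, plus strand, position 7: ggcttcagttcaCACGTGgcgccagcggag
BYSL, chr6:41921515-41921544, plus strand, position 29: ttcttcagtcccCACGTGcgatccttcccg
NOP2, chr12:6568242-6568268, minus strand, position 36: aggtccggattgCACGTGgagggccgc

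Of the 18 E-box matches in member windows, 16 began within 70 bases of the start site, and no match overlapped a CACGCG. The other members with an E-box were RRP9, GAR1, NOP14, NAT10, PES1, DDX21 and LYAR. CACGCG without an E-box was found at POLR1A, POLR1C, POLR1D, RRN3, UBTF, NHP2, WDR75, DDX10, GTPBP4 and NPM1. These are matches of letters, not measured binding.

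**Figure D1:**
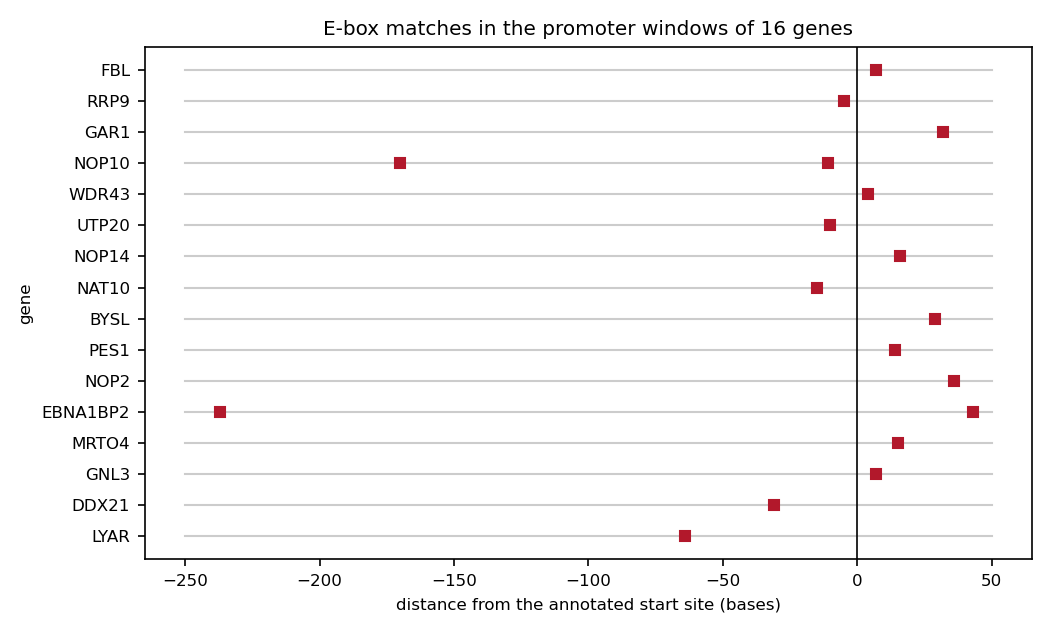
Position of CACGTG in the promoter windows of the 16 members that hold it. The x axis is the distance in bases from the annotated start site, grey lines span the window, and squares mark the first base of a match; 16 of 18 squares lie within 70 bases of the start. The EBNA1BP2 squares come from windows of separate start sites.

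Library totals ran from 16547663 to 27664604 counts. MYCN itself averaged 633 to 1024 CPM in the MYCN-high groups and 13.5 to 25.5 CPM in the MYCN-low groups, as labelled. Its relative MYC went the other way, at 0.361 to 0.791 CPM in the MYCN-high groups and 11 to 14.6 CPM in the MYCN-low groups. The states thus differ in both genes, and the part of MYC in the differences below was not tested. Here CPM is the usual depth-scaled count, taken over TMM-adjusted library totals, a scale set by the bulk of genes. Mesenchymal neuroblastoma markers such as VIM were present in each library (8 markers summing to 1690 to 2600 CPM in MYCN-high and 4530 to 15900 CPM in MYCN-low libraries). FN1 weighed much in these sums, averaging 82.2 to 156 CPM in MYCN-high and 1140 to 7317 CPM in MYCN-low groups. Untreated, PRRX1 alone of the 8 averaged higher in MYCN-high cells (206 against 145 CPM). TWIST1 was higher there at 8 days (54.8 against 33 CPM) and 14 days (65.5 against 28.3 CPM), and CD44 at 72 h (644 against 510 CPM). PRRX1 was again higher in MYCN-high cells at 72 h (145 against 137 CPM), 3 days (268 against 211 CPM) and 8 days (327 against 278 CPM). The part of these markers in the differences between the states was not tested. The adrenergic markers DBH, TH and CHGA had at most 3 counts in any library and did not pass the filter. GATA3, HAND1 and ISL1 were tested, with up to 53, 77 and 126 counts, and ISL1 was higher in MYCN-high cells at 8 days (1.62 ± 0.45, edgeR adjusted p = 0.00794). Markers of blood cells, and of endothelial and epithelial cells, summed to at most 2.44 CPM in any library. Untreated MYCN-low cells were the least alike pair of replicates: 36 of 44 members were higher in C than in B, by a median log2 of 0.49, and 20 differed by over 1.5-fold.

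Spike-in RNA was the second possible scale. It made up 0.0116% to 0.537% of counts, and scaling by it moved the median gene by -3.44 to 2.51 log2 units depending on the comparison. Replicates of a group differed in this share, with 0.0116% in B and 0.191% in C of MYCN-high cells at 72 h. At 14 days MYCN-high cells had 0.144% and 0.537%, and untreated MYCN-low cells had 0.367% and 0.12%. The closest pair was MYCN-low at 8 days, with 0.089% and 0.0961%. Signs on the spike-in scale below thus rest on a scale that varied within groups. On that scale no member passed the threshold in any comparison, apart from 2 that were lower at 14 days than at 72 h in MYCN-high cells. Changes below are therefore relative to the bulk of genes, and amounts per cell were not measured; in bulk RNA, fewer cells of a kind and less RNA per cell cannot be told apart.

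Before treatment, 41 of the 44 members were higher in MYCN-high than in MYCN-low cells and none was lower, a direction that held for all 41 on the spike-in scale. The background was 16.5% of all tested genes higher. The members' median log2 fold change was 1.5, with a range of 0.16 to 2.15, against -0.04 over all tested genes. The test was edgeR's quasi-likelihood test with Benjamini-Hochberg adjustment over all tested genes and a threshold of 0.05. At an unadjusted p under 0.05 the lower count was also 0, and DESeq2's Wald test called 41 higher and 0 lower. The 44 genes received 2.5% and 2.61% of gene counts in the untreated MYCN-high libraries and 0.644% and 1% in the untreated MYCN-low libraries. NPM1 and NCL weighed most in these shares, with 195152 and 98076 of the 549427 member counts in untreated MYCN-high replicate B. In untreated MYCN-low replicate B they had 27935 and 17648 of 109887.

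The states stayed apart through treatment. After 72 h of doxorubicin 39 members were higher in MYCN-high cells (background 15.5%), at 3 days after washout 39 (background 17%), at 8 days 43 (background 23.4%) and at 14 days 41 (background 21.4%). None was lower at any of these times, with or without adjustment of p or by DESeq2's Wald test, and the spike-in scale turned the sign of 1 of the 41 at 14 days and of none at the other times. The medians were 1.21, 1.19, 1.42 and 1.62, in order of time, against medians of all tested genes between 0.00 and 0.04. In 34 members, or 77.3%, every MYCN-high library of any time lay above every MYCN-low library of any time. That was so for 978 of the 14793 tested genes, or 6.61%. Leaving out a library of the groups compared, the calls held in every fit for 40 of 41 members untreated, 32 of 39 at 72 h, 34 of 39 at 3 days, 37 of 43 at 8 days and 40 of 41 at 14 days. In 40 of the 44 the states did not overlap at any time, against 14% of all tested genes with MYCN-high above MYCN-low in the same way, and the exceptions were UBTF, NOP10, UTP20 and PPAN.

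**Figure D2:**
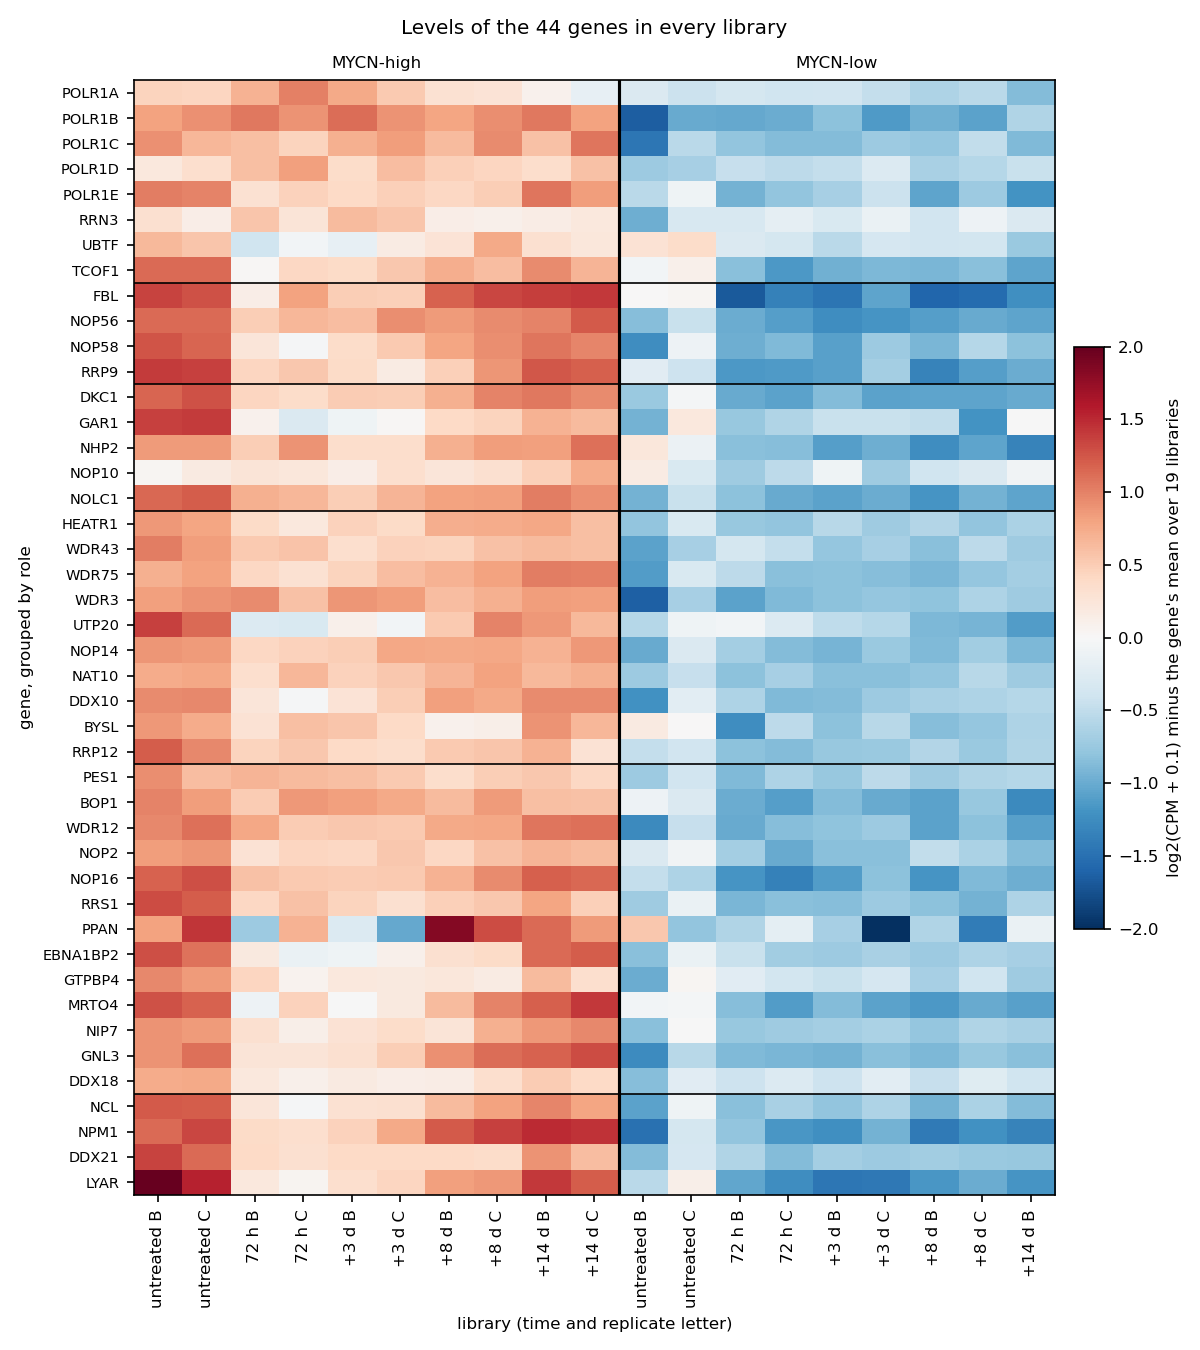
Level of each of the 44 members in each of the 19 libraries, as log2(CPM + 0.1) minus the mean of that gene over all libraries (red above, blue below). MYCN-high libraries are left of the black line and MYCN-low libraries right of it, each in order of time, and horizontal lines part the roles. In 34 of the 44 genes all libraries left of the line lie above all those right of it, on the scale set by the bulk of genes.

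Among the genes of RNA polymerase I, 7 of 8 were higher in untreated MYCN-high cells, with a median of 1.04. POLR1B, the second largest subunit, differed most. It stood at 119 and 128 CPM in untreated MYCN-high cells, 141 and 127 CPM at 72 h, 148 and 126 CPM at 3 days, 117 and 129 CPM at 8 days and 141 and 119 CPM at 14 days. The MYCN-low libraries had 21.6 and 33.8 CPM untreated, 33.5 and 34.2 CPM at 72 h, 38.3 and 30.8 CPM at 3 days, 34.8 and 32.3 CPM at 8 days and 44.6 CPM at 14 days. The lowest MYCN-high library was thus far above the highest MYCN-low library, and within MYCN-high cells the times overlapped. The difference was 2.15 ± 0.20 untreated (edgeR adjusted p = 9.48e-06) and 1.54 ± 0.25 at 14 days (edgeR adjusted p = 0.000202), where ± approximates the standard error.

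RRN3, the initiation factor that brings the polymerase to the ribosomal promoter, differed less. It was at 158 and 138 CPM in untreated MYCN-high cells, 186 and 151 CPM at 72 h, 196 and 185 CPM at 3 days, 138 and 136 CPM at 8 days and 141 and 146 CPM at 14 days. With MYCN low, the values were 64.4 and 101 CPM untreated, 101 and 112 CPM at 72 h, 102 and 115 CPM at 3 days, 97.1 and 118 CPM at 8 days and 103 CPM at 14 days. All MYCN-high libraries lay above all MYCN-low ones. The log2 difference was 0.84 ± 0.19 untreated (edgeR adjusted p = 0.00368) and 0.81 at 3 days. It was 0.35 ± 0.19 at 8 days and 0.48 ± 0.24 at 14 days, where it missed the threshold (edgeR adjusted p = 0.155 and 0.121). With an untreated library left out, the untreated value ran from 0.55 to 1.20. For RRN3 the response in MYCN-high minus that in MYCN-low cells passed the threshold at no time. A change in the margin was thus not shown. The call at 72 h was lost without replicate B of either state at that time (adjusted p = 0.115 without MYCN-high B, 0.118 without MYCN-low B), and that at 3 days without MYCN-low B (adjusted p = 0.0525). RRN3 has 3 pseudogenes by name, between which reads can be split.

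UBTF, the protein that coats ribosomal DNA and keeps it open, was the exception before treatment. It measured 365 and 342 CPM in untreated MYCN-high cells, 177 and 225 CPM at 72 h, 208 and 260 CPM at 3 days, 280 and 393 CPM at 8 days and 291 and 271 CPM at 14 days. In MYCN-low cells it measured 283 and 300 CPM untreated, 190 and 183 CPM at 72 h, 160 and 185 CPM at 3 days, 179 and 180 CPM at 8 days and 139 CPM at 14 days. The states overlapped at 72 h and lay apart at the other times. The log2 difference was 0.28 ± 0.18 untreated (edgeR adjusted p = 0.246) and 0.11 ± 0.18 at 72 h, against 0.91 ± 0.18 at 8 days (edgeR adjusted p = 0.000783) and 1.01 ± 0.23 at 14 days. At 72 h and 3 days it also missed the threshold. For UBTF the response in MYCN-high minus that in MYCN-low cells passed the threshold at no time, so a change in the gap was not shown.

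The remaining polymerase genes were higher in MYCN-high cells at each of the 5 times. POLR1A, the largest subunit, differed by 0.79 ± 0.15 before treatment. POLR1C and POLR1D, which RNA polymerase III shares, differed by 1.72 ± 0.25 and 0.97 ± 0.15. POLR1E, which holds the polymerase to its initiation factors, differed by 1.30 ± 0.18, and TCOF1 (treacle), a nucleolar partner of the polymerase, by 1.11 ± 0.16.

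All 4 box C/D proteins were higher in MYCN-high cells at all 5 times, with a median of 1.74 untreated. FBL (fibrillarin), the methyltransferase of these particles, had 83.2 and 78.7 CPM in untreated MYCN-high cells, 35.6 and 56.4 CPM at 72 h, 45.5 and 45 CPM at 3 days, 73.8 and 82.4 CPM at 8 days and 84.6 and 86.3 CPM at 14 days. The MYCN-low libraries had 32.5 and 33.3 CPM untreated, 10.1 and 12.7 CPM at 72 h, 11.7 and 15.6 CPM at 3 days, 10.7 and 11.1 CPM at 8 days and 13.8 CPM at 14 days. Its MYCN-high level was lowest at 72 h and 3 days and then back at the untreated level, and no treated MYCN-low library came near the untreated ones. The difference between the states was 1.30 ± 0.20 untreated and 2.84 ± 0.22 at 8 days (edgeR adjusted p = 0.000254 and 5.79e-07).

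NOP56, a core protein that bridges the snoRNA and fibrillarin, differed by 1.77 ± 0.17 before treatment (edgeR adjusted p = 1.01e-05). Its levels in MYCN-high cells were 460 and 460 CPM untreated, 296 and 333 CPM at 72 h, 323 and 397 CPM at 3 days, 379 and 403 CPM at 8 days and 415 and 488 CPM at 14 days. In MYCN-low cells they were 116 and 154 CPM untreated, 105 and 97.4 CPM at 72 h, 88.8 and 92 CPM at 3 days, 97.3 and 104 CPM at 8 days and 101 CPM at 14 days. The states were separate throughout. NOP58, its partner, also differed by 1.77 ± 0.27 and RRP9, which is specific to the U3 snoRNP, by 1.70 ± 0.19.

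Of the box H/ACA proteins, DKC1 (dyskerin, the pseudouridine synthase), GAR1 and NHP2 were higher in untreated MYCN-high cells by 1.57 ± 0.19, 1.65 ± 0.33 and 0.79 ± 0.17, and GAR1 missed the threshold at 72 h, 3 days and 14 days. NOLC1, the chaperone that gathers snoRNPs in the nucleolus, differed most, by 1.86 ± 0.17 (edgeR adjusted p = 9.66e-06). It had 779 and 815 CPM in untreated MYCN-high cells, 578 and 556 CPM at 72 h, 492 and 566 CPM at 3 days, 612 and 620 CPM at 8 days and 712 and 666 CPM at 14 days. With MYCN low, the values were 182 and 257 CPM untreated, 199 and 174 CPM at 72 h, 167 and 177 CPM at 3 days, 156 and 183 CPM at 8 days and 170 CPM at 14 days. Every MYCN-high library was far above every MYCN-low one.

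NOP10, the smallest of the H/ACA core proteins, showed the least difference of all members before treatment, 0.16 ± 0.21 (edgeR adjusted p = 0.577). It had 42.9 and 47.3 CPM in untreated MYCN-high cells, 50.2 and 48.9 CPM at 72 h, 45.9 and 53.1 CPM at 3 days, 49.8 and 52.5 CPM at 8 days and 58.1 and 69.9 CPM at 14 days. In MYCN-low cells it had 46.8 and 33.9 CPM untreated, 25.5 and 29 CPM at 72 h, 39.4 and 25.5 CPM at 3 days, 31.8 and 34.1 CPM at 8 days and 39.9 CPM at 14 days. The untreated states overlapped and the treated ones did not. Its response in MYCN-high minus that in MYCN-low cells passed the threshold at no time, so a change in the gap was not shown for NOP10. It was higher by 0.86 ± 0.21 at 72 h (edgeR adjusted p = 0.00543), but that call was lost without MYCN-low replicate B (adjusted p = 0.0643), and at 3, 8 and 14 days the calls were lost in 3 of 4, 4 of 4 and 2 of 2 fits that left out a library.

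All 10 small-subunit factors were higher in untreated MYCN-high cells, with a median of 1.5. WDR3, of the UTP-B complex, differed most, by 1.93 ± 0.23 (edgeR adjusted p = 4.48e-05). It had 366 and 388 CPM in untreated MYCN-high cells, 399 and 311 CPM at 72 h, 384 and 372 CPM at 3 days, 317 and 339 CPM at 8 days and 370 and 368 CPM at 14 days. The MYCN-low libraries had 67 and 131 CPM untreated, 98.9 and 112 CPM at 72 h, 118 and 122 CPM at 3 days, 119 and 135 CPM at 8 days and 127 CPM at 14 days. Every MYCN-high library lay above every MYCN-low one, and within each state the treated and untreated libraries overlapped in range.

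BYSL (bystin), a late small-subunit factor, differed least of them, by 0.72 ± 0.23 (edgeR adjusted p = 0.0259). It had 18.3 and 16.8 CPM in untreated MYCN-high cells, 12.3 and 15.2 CPM at 72 h, 14.7 and 13.2 CPM at 3 days, 10.6 and 10.9 CPM at 8 days and 18.8 and 15.9 CPM at 14 days. With MYCN low, the values were 11.3 and 10.1 CPM untreated, 4.19 and 6.95 CPM at 72 h, 5.66 and 6.78 CPM at 3 days, 5.5 and 5.79 CPM at 8 days and 6.47 CPM at 14 days. The states did not overlap at any time. Its untreated call was lost when any of the 4 untreated libraries was left out (adjusted p = 0.138 without MYCN-high B, 0.0837 without MYCN-high C, 0.0569 without MYCN-low B and 0.083 without MYCN-low C).

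The t-UTP proteins HEATR1, WDR43 and WDR75, which are needed for both transcription and early processing, were higher by 1.36 ± 0.17, 1.79 ± 0.17 and 1.42 ± 0.20. UTP20 and NOP14, structural parts of the small-subunit processome, were higher by 1.56 ± 0.19 and 1.48 ± 0.20. NAT10, which acetylates 18S ribosomal RNA, was higher by 1.35 ± 0.15, the helicase DDX10 by 1.58 ± 0.24 and the export factor RRP12 by 1.52 ± 0.16. Of the 10, UTP20 missed the threshold at 72 h, at -0.13 ± 0.19 (edgeR adjusted p = 0.635), and its call at 3 days was lost in all 4 fits that left out a library (adjusted p = 0.0704 to 0.19).

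Of the 13 large-subunit factors, 12 were higher in untreated MYCN-high cells, with a median of 1.33. GNL3 (nucleostemin), a nucleolar GTPase, differed most, by 1.86 ± 0.20 (edgeR adjusted p = 1.77e-05). It had 515 and 591 CPM in untreated MYCN-high cells, 331 and 332 CPM at 72 h, 346 and 390 CPM at 3 days, 522 and 597 CPM at 8 days and 625 and 685 CPM at 14 days. In MYCN-low cells it had 116 and 189 CPM untreated, 150 and 147 CPM at 72 h, 144 and 155 CPM at 3 days, 149 and 164 CPM at 8 days and 154 CPM at 14 days. The MYCN-high libraries at 72 h and 3 days lay below all other MYCN-high libraries. The response at 72 h in MYCN-high minus that in MYCN-low cells was -0.70 ± 0.27 and did not pass the threshold (edgeR adjusted p = 0.103).

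NOP2, a methyltransferase of 28S ribosomal RNA, differed least of the 13, by 1.04 ± 0.15 (edgeR adjusted p = 0.000163). It had 97.4 and 101 CPM in untreated MYCN-high cells, 66.6 and 73.1 CPM at 72 h, 72.7 and 79.6 CPM at 3 days, 72.8 and 81.7 CPM at 8 days and 87.6 and 84.5 CPM at 14 days. The MYCN-low libraries had 44.7 and 51.9 CPM untreated, 33.9 and 27.1 CPM at 72 h, 30.5 and 30.5 CPM at 3 days, 38.7 and 35.3 CPM at 8 days and 29.9 CPM at 14 days. All MYCN-high libraries lay above all MYCN-low ones. Annotation places 54.4% of its exonic bases in a further gene on the same strand, so its counts are uncertain.

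PES1, BOP1 and WDR12, which form the PeBoW complex of the large subunit, were higher by 1.33 ± 0.17, 1.12 ± 0.18 and 1.83 ± 0.21. NOP16 was higher by 1.79 ± 0.17, RRS1, which helps load the 5S ribonucleoprotein, by 1.66 ± 0.19, and EBNA1BP2 by 1.63 ± 0.20. The GTPase GTPBP4 was higher by 1.30 ± 0.25, MRTO4, which stands in for a stalk protein during assembly, by 1.28 ± 0.19, NIP7 by 1.24 ± 0.22 and the helicase DDX18 by 1.25 ± 0.18. GTPBP4 missed the threshold at 72 h and 3 days and DDX18 at 3 days. PPAN, with 0 to 32 counts a library, differed by 1.37 ± 0.90 untreated (edgeR adjusted p = 0.259) and passed the threshold at 8 days alone, a call that was lost without MYCN-high replicate B (adjusted p = 0.0634) or without MYCN-low replicate C (adjusted p = 0.132). Annotation gives 56% of its exonic bases to a readthrough gene as well.

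The 4 nucleolar proteins of several steps were higher in MYCN-high cells at all 5 times, with a median of 1.91 untreated. NCL (nucleolin), which binds ribosomal DNA and the precursor, had 4781 and 4721 CPM in untreated MYCN-high cells, 2418 and 2010 CPM at 72 h, 2506 and 2554 CPM at 3 days, 3169 and 3537 CPM at 8 days and 3992 and 3499 CPM at 14 days. With MYCN low, the values were 970 and 1927 CPM untreated, 1137 and 1297 CPM at 72 h, 1174 and 1334 CPM at 3 days, 1062 and 1306 CPM at 8 days and 1113 CPM at 14 days. The lowest MYCN-high library, at 72 h, was just above the highest MYCN-low library, untreated C. The difference was 1.71 ± 0.25 untreated (edgeR adjusted p = 0.000162) and 0.86 ± 0.25 at 72 h (edgeR adjusted p = 0.0151), the last lost without replicate B of MYCN-high (adjusted p = 0.086) or MYCN-low cells (adjusted p = 0.116) at 72 h.

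NPM1 (nucleophosmin), a nucleolar chaperone, had 9513 and 11002 CPM in untreated MYCN-high cells, 5681 and 5447 CPM at 72 h, 5948 and 7367 CPM at 3 days, 10168 and 11174 CPM at 8 days and 12165 and 11817 CPM at 14 days. In MYCN-low cells it had 1535 and 3385 CPM untreated, 2499 and 1937 CPM at 72 h, 1853 and 2253 CPM at 3 days, 1623 and 1880 CPM at 8 days and 1726 CPM at 14 days. The log2 difference was 2.06 ± 0.29 untreated (edgeR adjusted p = 0.000113), 1.33 ± 0.28 at 72 h, 2.61 ± 0.29 at 8 days and 2.80 ± 0.39 at 14 days. With an untreated library left out, the untreated value ran from 1.60 to 2.73. For NPM1 the response in MYCN-high minus that in MYCN-low cells passed the threshold at no time, so a change in the gap was not shown. NPM1 has 45 pseudogenes by name, so its counts are uncertain. DDX21, a helicase that binds ribosomal DNA and snoRNAs, was higher by 1.83 ± 0.19 before treatment and LYAR by 1.98 ± 0.21.

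**Figure D3:**
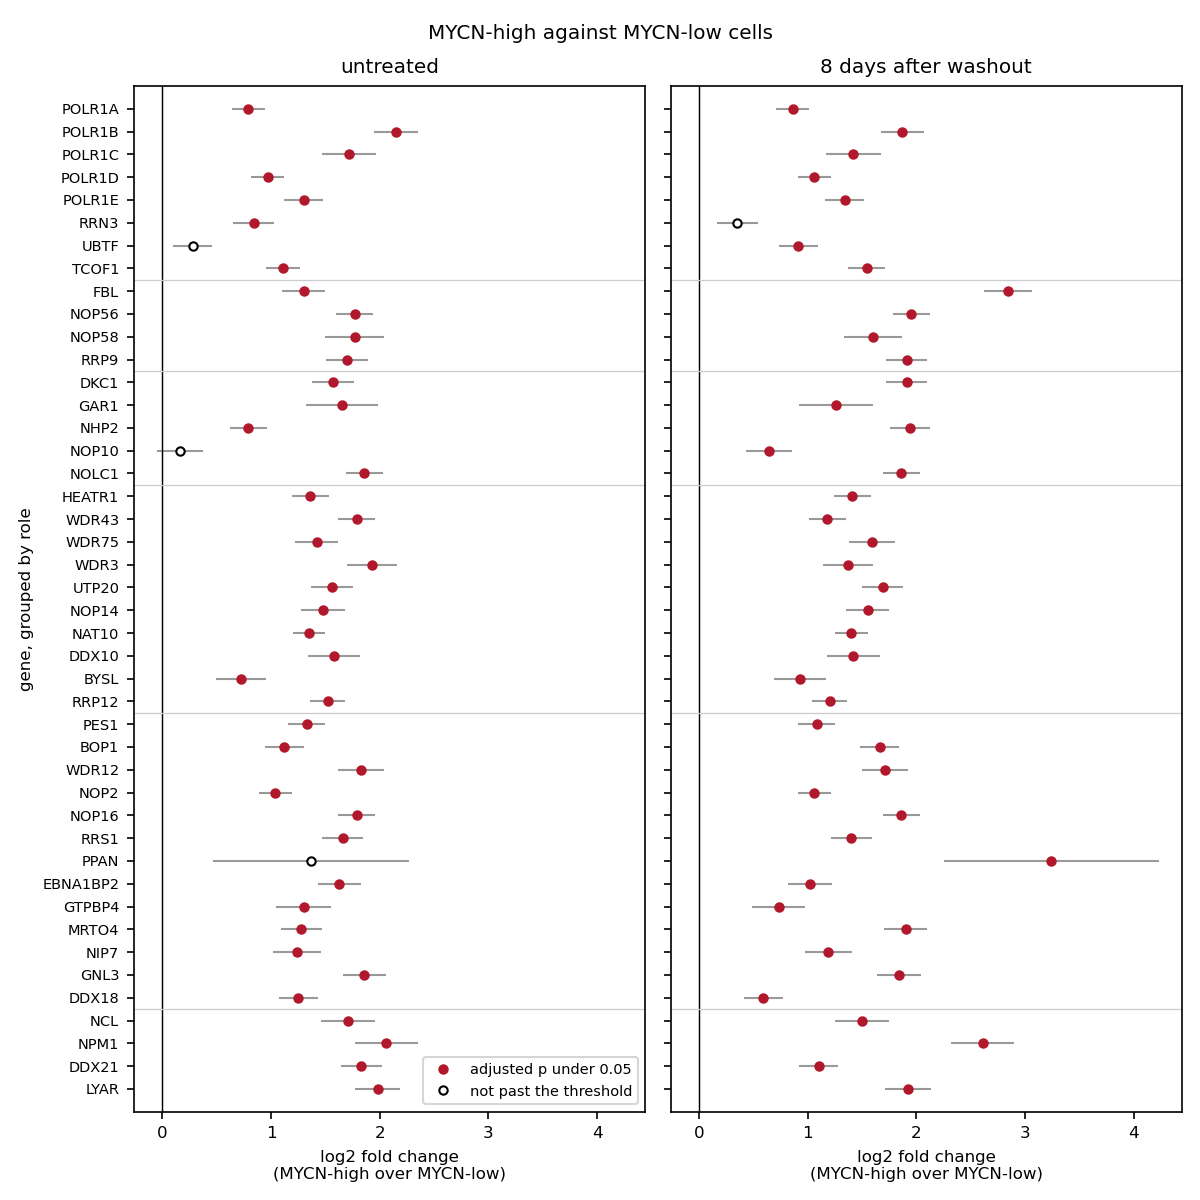
Log2 fold change of each member in MYCN-high over MYCN-low cells, untreated (left) and 8 days after washout (right). Bars are approximate standard errors, red points passed an adjusted p of 0.05 and open points did not; all 44 points lie right of 0 in both panels, on the scale set by the bulk of genes, and 41 and 43 are red.

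After 72 h of doxorubicin in MYCN-high cells, 27 members fell relative to the bulk of genes, against a background of 17.9%, and 2 rose, against a background of 18.3%, while on the spike-in scale the 27 turned upward. The members' median was -0.61 and that of all tested genes 0.03, and with spike-in scaling these were 1.77 and 2.37. At 3 days 23 members were below untreated cells (background 15.7%; median -0.58) and at 8 days 6 were (background 4.09%; median -0.35), and on the spike-in scale the sign of all 23 and of all 6 turned. The calls held in every fit without a library for 14 of the 27, 12 of the 23 and 0 of the 6. At 72 h those lost in at least 1 fit were POLR1E, FBL, NOP56, NOLC1, HEATR1, DDX10, RRP12, NOP2, GTPBP4, NIP7, GNL3, DDX18 and NPM1. Without untreated B or C the count at 3 days was 13 or 14, without B or C of that time 13 or 14, and at 8 days it was 0 to 3. At 14 days none was below, against 0% of all tested genes, and the median was -0.11. At an unadjusted p under 0.05, 7 members were lower and 1 higher at 14 days, of 628 and 617 genes, and DESeq2's Wald test called no member of 24 lower and 44 higher genes.

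In MYCN-low cells 13 members were below untreated cells at 72 h (background 12.1%), at 3 days 12 (background 12.7%), at 8 days 13 (background 14.6%) and at 14 days 10 (background 10.7%). On the spike-in scale 9 of the 13 at 8 days changed sign, and none did at the other times. The medians were -0.25, -0.25, -0.29 and -0.29, in order of time, and with all libraries edgeR called 0 members higher at each. At an unadjusted p under 0.05, and by DESeq2's Wald test, 1 member was higher at 72 h and 1 at 14 days. These values rest on the untreated MYCN-low libraries, B and C, of which B was the lower for 36 members. Without B, 21 members were lower at 72 h, 20 at 3 days, 26 at 8 days and 20 at 14 days, with medians of -0.48, -0.53, -0.53 and -0.55. Without C, 12, 10, 9 and 10 members were lower and 6, 7, 7 and 4 higher, and the medians were 0.01, 0.04, 0.09 and 0.13, so the direction of the median was lost. The lower counts were also smaller without MYCN-low replicate C at 72 h (8 members), replicate B at 3 days (7), and replicate B or C at 8 days (4 and 8). At 72 h 7 of the 13 held in every fit without a library, and POLR1E, UBTF, DKC1, BYSL, NOP2 and NOP16 were lost in at least 1.

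The cell-cycle list fell too, by more in MYCN-low cells at 72 h, while the members' median was the lower in MYCN-high cells. That order of the members' medians turned on the spike-in scale, with 1.77 in MYCN-high and 0.12 in MYCN-low cells. All tested genes had 2.37 and 0.52 there. It also rests on the untreated MYCN-low libraries: the members' median difference between responses at 72 h was -0.02 without replicate B and -0.51 without replicate C. All 10 cell-cycle genes, such as MKI67, fell at 72 h in both states, by a median of -3.70 in MYCN-high and -5.98 in MYCN-low cells. The backgrounds were 17.9% and 12.1% of all tested genes. They were still lower in MYCN-low cells at 8 days (10 of 10, background 14.6%, median -3.11). In MYCN-high cells 1 of 10 was (background 4.09%, median -0.68). The noncoding RNAs RMRP and RPPH1, which ribonucleoprotein enzymes carry, rose at 72 h in MYCN-high cells by 1.00 ± 0.32 and 1.29 ± 0.35. Their values in MYCN-low cells were -0.73 ± 0.32 and -0.23 ± 0.35 (edgeR adjusted p = 0.114 and 0.671). Both RNAs lack a polyA tail, and the labels name polyA RNA where the protocol describes depletion of ribosomal RNA, so how they were captured is uncertain. The part of any of these in the members' changes was not tested.

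Of the 8 polymerase genes 2 rose and 3 fell at 72 h in MYCN-high cells, and the spike-in scale turned the 3. At 72 h in MYCN-high cells POLR1A rose by 0.43 ± 0.15 (edgeR adjusted p = 0.0346), with 177 and 219 CPM at 72 h and 148 and 146 CPM in untreated cells. POLR1D rose by 0.45 ± 0.15 (edgeR adjusted p = 0.0302), with 82.4 and 95.8 CPM at 72 h and 62.5 and 68 CPM untreated. Both treated pairs lay above the untreated pairs, though each call was lost without MYCN-high replicate B untreated (adjusted p = 0.111 for POLR1A and 0.148 for POLR1D), C untreated (0.139 and 0.0745) or C at 72 h (0.268 and 0.18). POLR1B, POLR1C and RRN3 passed the threshold in neither direction at any time in either state. POLR1E fell at 72 h in both states, by 0.62 on the log2 scale in MYCN-high and by 0.57 in MYCN-low cells, as did UBTF (-0.81 ± 0.18 and -0.64 ± 0.18) and TCOF1 (-0.91 ± 0.16 and -1.02 ± 0.17). The MYCN-low call of UBTF was lost without MYCN-low replicate B or C at 72 h (adjusted p = 0.0732 and 0.0866).

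All 4 box C/D genes fell at 72 h in MYCN-high cells, with a median of -0.86 that the spike-in scale turned, and 2 of 4 in MYCN-low cells. NOP58 fell by 1.10 on the log2 scale in MYCN-high cells (± 0.27, edgeR adjusted p = 0.00449) and NOP56 by 0.55 (± 0.16, edgeR adjusted p = 0.0157). In MYCN-low cells the values were -0.37 ± 0.26 and -0.42 ± 0.16, not past the threshold. FBL was lower in both states, at -0.82 ± 0.20 in MYCN-high and -1.53 ± 0.21 in MYCN-low cells (edgeR adjusted p = 0.00492 and 7.23e-05), and RRP9 likewise at -0.90 ± 0.18 and -0.83 ± 0.19. The MYCN-high call of FBL was lost without replicate B at 72 h (adjusted p = 0.0694), and that of NOP56 without replicate B at 72 h (adjusted p = 0.099) or without untreated B or C (0.063 and 0.0619).

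Of the 5 H/ACA genes 3 fell at 72 h in MYCN-high cells, GAR1 (-1.49 ± 0.33), DKC1 (-0.83 ± 0.19) and NOLC1 (-0.49 ± 0.17), each of which turned on the spike-in scale. The NOLC1 call was lost in all 4 fits that left out a library (adjusted p = 0.0826 to 0.13). In MYCN-low cells DKC1 (-0.69 ± 0.19) and NHP2 (-0.91 ± 0.18) fell. Of the 10 small-subunit genes 4 fell at 72 h in MYCN-high cells, a direction that turned on the spike-in scale: UTP20 (-1.55 ± 0.19), DDX10 (-0.84 ± 0.23), RRP12 (-0.60 ± 0.15) and HEATR1 (-0.52 ± 0.16). In MYCN-low cells 1 of 10 did, BYSL (-0.94 ± 0.24), a call lost without MYCN-low replicate B at 72 h (adjusted p = 0.129). WDR75, WDR3, NOP14 and NAT10 fell in neither state at any time.

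Of the 13 large-subunit genes 9 fell at 72 h in MYCN-high cells, with a median of -0.65 over the 13 that turned on the spike-in scale. EBNA1BP2 (-1.15 ± 0.20), MRTO4 (-1.03 ± 0.19), RRS1 (-0.75 ± 0.18) and GNL3 (-0.74 ± 0.19) changed most among them, and NOP16, GTPBP4, NIP7, DDX18 and NOP2 lay between -0.68 and -0.51. The GNL3 call was lost without untreated MYCN-high replicate C (adjusted p = 0.0565), and those of NOP2 and NPM1 in 3 of 4 fits (adjusted p up to 0.0892 and 0.11). In MYCN-low cells 4 fell, MRTO4 (-0.93 ± 0.19), BOP1 (-0.85 ± 0.18), NOP16 (-0.72 ± 0.17) and NOP2 (-0.66 ± 0.15), the last lost without MYCN-low replicate C at 72 h (adjusted p = 0.066). PES1, WDR12 and PPAN passed the threshold in neither state at any time. All 4 nucleolar proteins of several steps fell in MYCN-high cells, a direction that turned on the spike-in scale, with LYAR at -1.68 ± 0.21, NCL at -1.10 ± 0.25, DDX21 at -0.89 ± 0.18 and NPM1 at -0.88 ± 0.28. In MYCN-low cells LYAR fell (-0.97 ± 0.21), while NCL was at -0.25 ± 0.24, DDX21 at -0.15 ± 0.18 and NPM1 at -0.15 ± 0.28.

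Across the 72 h comparisons 10 members passed the threshold in both states, 17 in MYCN-high cells alone and 3 in MYCN-low cells alone (NHP2, BYSL and BOP1), and 13 members were lower at no time in either state. As shares of the 44 these were 22.7%, 38.6%, 6.82% and 29.5%, against 7.34%, 10.6%, 4.75% and 70% of all tested genes. Whether the responses differ is a separate test, given next. In MYCN-low cells UBTF, TCOF1, FBL, NHP2, BOP1, MRTO4 and LYAR were lower at each of the 4 treated times, relative to the bulk of genes, 15.9% of members against 6.93% of all tested genes. Among these calls, UBTF was lost in some fit without a library at 72 h, 3 and 8 days, BOP1 at 3 and 8 days, and LYAR at 8 and 14 days.

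**Figure D4:**
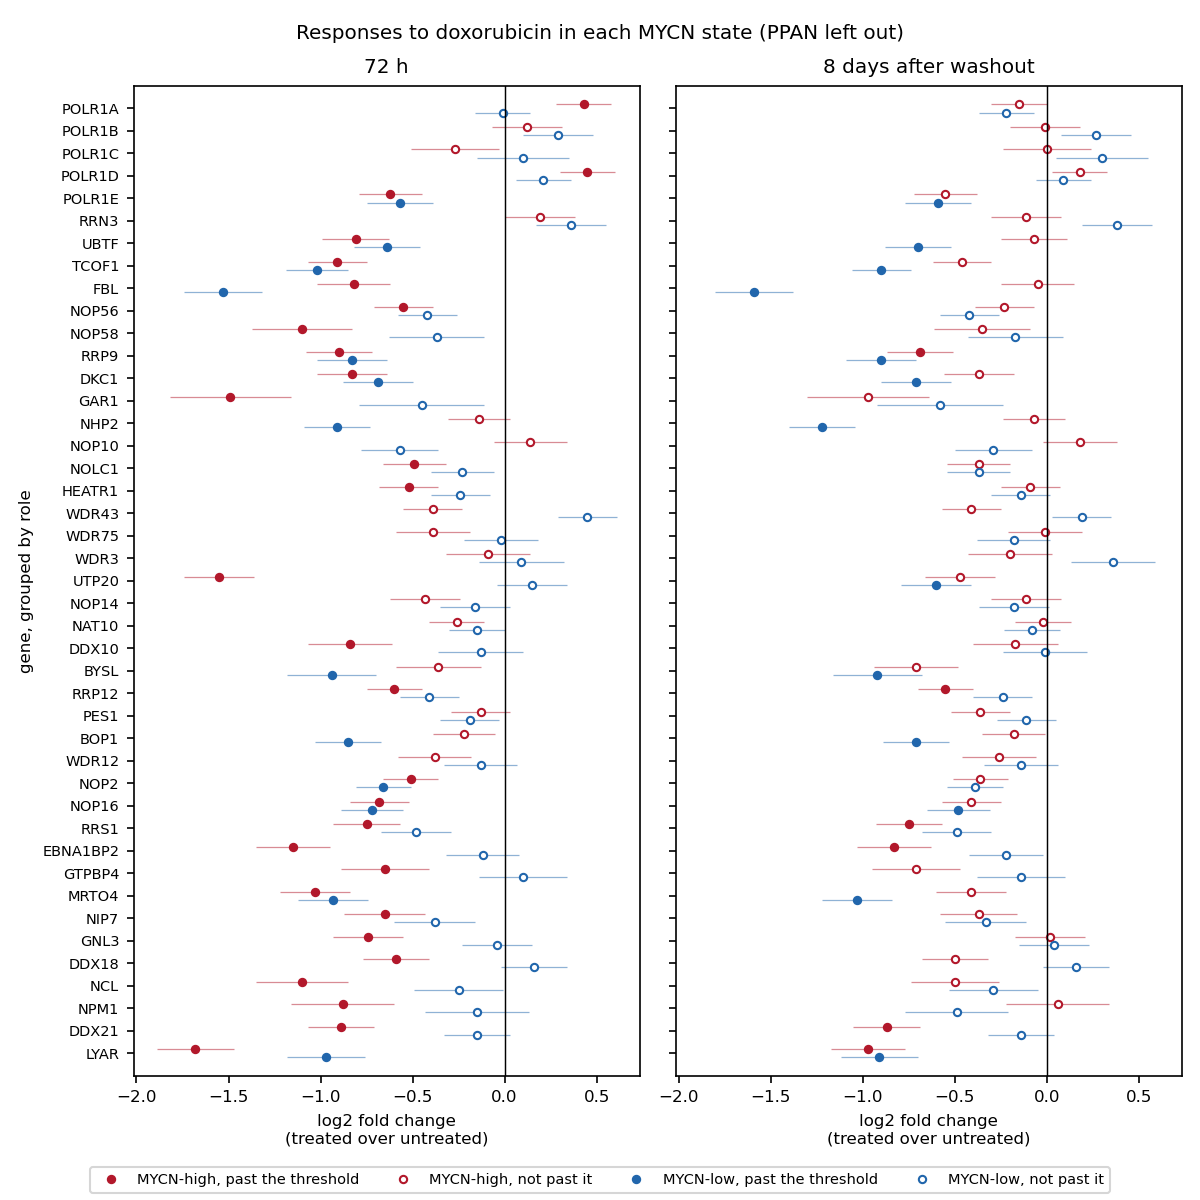
Log2 fold change of each member against untreated cells of the same state, at 72 h (left) and 8 days after washout (right), for MYCN-high (red) and MYCN-low cells (blue). Filled points passed an adjusted p of 0.05, bars are approximate standard errors, and PPAN is left out for its low counts. At 72 h 27 members fell in MYCN-high cells and 13 in MYCN-low cells on the scale set by the bulk of genes; on the spike-in scale the 27 turned upward.

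The difference between the responses, MYCN-high minus MYCN-low, passed the threshold at 72 h for 3 members, all with the lower response in MYCN-high cells (background 4.06%). UTP20 was the largest of them. It had 574 and 491 CPM in untreated MYCN-high cells, 184 and 180 CPM at 72 h, 239 and 214 CPM at 3 days, 321 and 445 CPM at 8 days and 407 and 349 CPM at 14 days. The MYCN-low libraries had 150 and 210 CPM untreated, 214 and 184 CPM at 72 h, 157 and 150 CPM at 3 days, 120 and 117 CPM at 8 days and 103 CPM at 14 days. At 72 h the states overlapped in level, which they did not at any other time. The difference between the responses was -1.70 ± 0.27 at 72 h (edgeR adjusted p = 0.0028), and it passed the threshold in all 8 fits without a library of the 4 groups. At 3 days UTP20 was the single member past the threshold, at -1.0 ± 0.27 (edgeR adjusted p = 0.0346; background 2.48%), a call lost in 7 of 8 such fits (adjusted p up to 0.138) and kept without untreated MYCN-low replicate C (adjusted p = 0.0042).

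EBNA1BP2, a large-subunit factor, had 445 and 388 CPM in untreated MYCN-high cells, 210 and 166 CPM at 72 h, 173 and 197 CPM at 3 days, 229 and 239 CPM at 8 days and 401 and 423 CPM at 14 days. With MYCN low, the values were 102 and 167 CPM untreated, 134 and 113 CPM at 72 h, 110 and 117 CPM at 3 days, 111 and 119 CPM at 8 days and 116 CPM at 14 days. Its MYCN-high level at 14 days was back in the untreated range, and its MYCN-low libraries stayed between 102 and 167 CPM. The difference at 72 h was -1.02 ± 0.28 (edgeR adjusted p = 0.033). WDR43 had 504 and 520 CPM at 72 h in MYCN-high cells, against 716 and 623 CPM untreated. In MYCN-low cells it had 274 and 253 CPM at 72 h, against 167 and 220 CPM untreated, which gives a difference between the responses of -0.83 ± 0.23 (edgeR adjusted p = 0.0339). Its values thus moved in opposite directions, although neither response alone passed the threshold (-0.39 ± 0.16 and 0.45 ± 0.16). Leaving out a library ended the EBNA1BP2 call in 6 of 8 fits (adjusted p up to 0.147) and the WDR43 call in 7 of 8 (adjusted p up to 0.127). All 3 differences at 72 h, and that at 3 days, turned sign on the spike-in scale. Without untreated MYCN-low replicate C 19 members had the lower response in MYCN-high cells at 72 h and 3 the higher, and 17 and 1 at 3 days.

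The members past the threshold made up 6.82% of the 44 at 72 h, 2.27% at 3 days, 4.55% at 8 days and 6.82% at 14 days, against 4.06%, 2.48%, 4.41% and 4.87% of all tested genes in the same direction. At 8 days FBL (1.54 ± 0.29, edgeR adjusted p = 0.00732) and NHP2 (1.15 ± 0.25, edgeR adjusted p = 0.0147) had the higher response in MYCN-high cells (background 4.41%), which the spike-in scale did not turn. Without untreated MYCN-low replicate C, 13 members had the lower response and 2 the higher at 8 days, and 4 and 3 at 14 days, and DESeq2's Wald test gave 3 lower and 2 higher at 8 days. NHP2 had 81.6 and 81 CPM in untreated MYCN-high cells, 63 and 84.2 CPM at 72 h, 57.6 and 57.4 CPM at 3 days, 74 and 80.5 CPM at 8 days and 79.7 and 96.7 CPM at 14 days. In MYCN-low cells it had 52.4 and 41.6 CPM untreated, 25 and 24.8 CPM at 72 h, 21 and 22.9 CPM at 3 days, 18.9 and 21.5 CPM at 8 days and 17.7 CPM at 14 days. The MYCN-high libraries at 8 days lay just below the untreated ones, and the MYCN-low libraries stayed at about the level of 72 h. Annotation places 27.4% of its exonic bases under RMND5B on the opposite strand.

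At 14 days FBL (1.33 ± 0.33), NHP2 (1.52 ± 0.28) and MRTO4 (1.11 ± 0.31) passed the threshold (edgeR adjusted p = 0.0247, 0.00643 and 0.0396; background 4.87%), and on the spike-in scale all 3 turned sign. MRTO4 had 179 and 167 CPM in untreated MYCN-high cells, 68.8 and 101 CPM at 72 h, 73.2 and 84.5 CPM at 3 days, 114 and 146 CPM at 8 days and 168 and 196 CPM at 14 days. The MYCN-low libraries had 70.5 and 71.8 CPM untreated, 40.9 and 34 CPM at 72 h, 40.5 and 34.9 CPM at 3 days, 33.3 and 36.4 CPM at 8 days and 34.7 CPM at 14 days. The MYCN-high series came back to its untreated level and the MYCN-low series did not, with a single MYCN-low library at 14 days. FBL at 8 days and NHP2 at 14 days passed in every fit without a library (adjusted p up to 0.0438 and 0.0298). FBL and MRTO4 at 14 days, and NHP2 at 8 days, were each lost in 4 fits, among them those without untreated MYCN-high replicate B or C (adjusted p up to 0.0728, 0.126 and 0.0785).

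**Figure D5:**
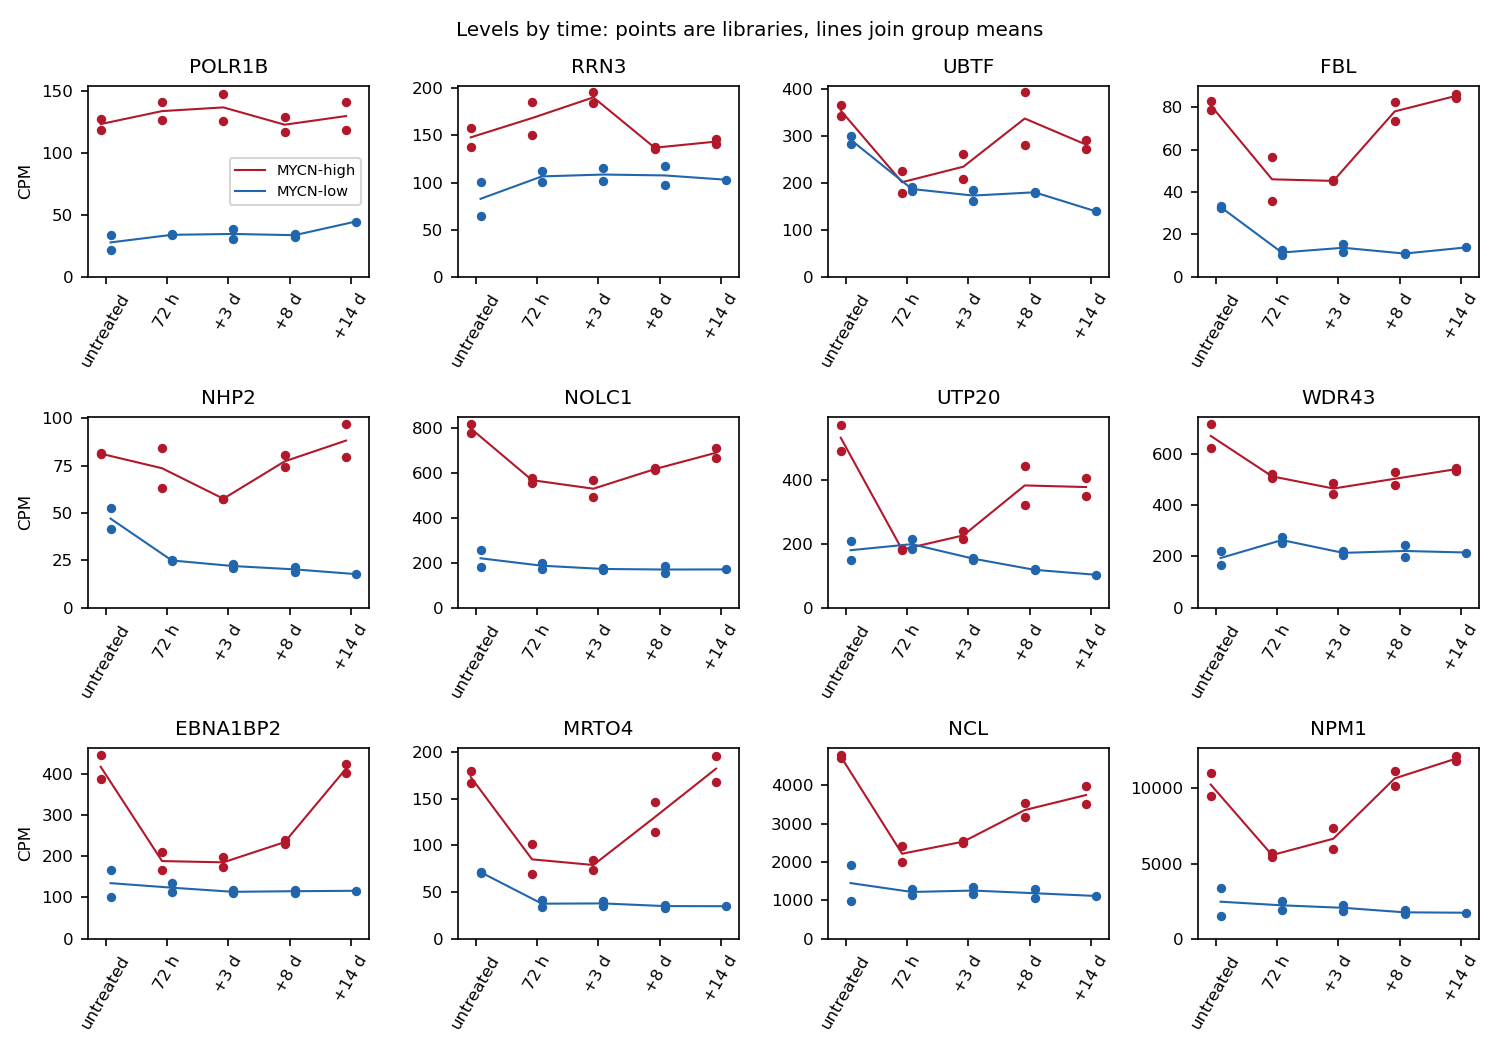
CPM of 12 members by time in MYCN-high (red) and MYCN-low cells (blue). Points are libraries, lines join group means, "+" times are days after washout, and each panel has its own axis from 0, on the scale set by the bulk of genes. UTP20 and EBNA1BP2 fall at 72 h in MYCN-high cells, which the spike-in scale turns. At 14 days FBL, NHP2 and MRTO4 are near untreated levels in MYCN-high cells and below them in the single MYCN-low library. Their differences between responses at 14 days turn sign on the spike-in scale.

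From 72 h of drug to 14 days after washout, 19 members rose in MYCN-high cells (background 17.3%) with a median of 0.42 over the 44, a direction that the spike-in scale turned for all 19. LYAR (1.19 ± 0.20), EBNA1BP2 (1.13 ± 0.20), NPM1 (1.11 ± 0.28), MRTO4 (1.10 ± 0.19) and UTP20 (1.06 ± 0.19) changed most. POLR1A was the single member lower at 14 days (-0.89 ± 0.15, edgeR adjusted p = 0.000298; background 18.3%), with 116 and 96.9 CPM at 14 days against 177 and 219 CPM at 72 h. In MYCN-low cells none rose, with 1 higher at an unadjusted p under 0.05 and none by DESeq2's Wald test. UTP20 was lower there (-0.95 ± 0.24, edgeR adjusted p = 0.0434; background 1.03%), with 103 CPM at 14 days against 214 and 184 CPM at 72 h, a call lost without MYCN-low replicate B (adjusted p = 0.234) or C (adjusted p = 0.0923) at 72 h. Of the 19 members that rose in MYCN-high cells, 8 passed in every fit without a library, and without MYCN-high replicate C at 72 h or replicate B at 14 days 12 and 11 members passed.

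Members were also set apart by whether their windows hold an E-box. Before treatment the median difference was 1.52 over the 16 members with CACGTG and 1.5 over the 20 without. At 72 h in MYCN-high cells the medians were -0.78 with it and -0.54 without it, with 10 of 16 and 10 of 20 lower on the scale set by the bulk of genes, and the spike-in scale turned these. Of the 6 members with a difference between responses at any time, UTP20, EBNA1BP2, WDR43, FBL and MRTO4 had an E-box and NHP2 had none. These are descriptions without a test.

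Other lists of the same pathway are given for untreated cells, MYCN-high over MYCN-low. The background for each list was 16.5% of all tested genes higher. Of 13 other subunits and factors of RNA polymerase I, 7 were higher and 1 lower (median 0.70), with CD3EAP, which encodes a polymerase subunit, at 1.36 ± 0.18 and POLR2H, shared by the nuclear RNA polymerases, at 1.22 ± 0.18. The lower one was POLR2L, also shared, at -1.25 ± 0.36 (edgeR adjusted p = 0.0133). Of 42 other small-subunit factors 36 were higher (median 1.05), with PWP2 at 1.32 ± 0.15 and RIOK1 at 1.35 ± 0.17. Of 44 other large-subunit factors 38 were higher (median 1.11), with RRP1 at 1.44 ± 0.16 and RRP1B at 1.35 ± 0.15. Of 10 snoRNP assembly factors 9 were higher, among them RUVBL1 (1.31 ± 0.14) and NUFIP1 (1.39 ± 0.19).

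Of 15 genes of the RNA exosome and ribosomal exonucleases 10 were higher (median 0.83), with EXOSC2 at 1.49 ± 0.21 and the helicase SKIV2L2 at 1.16 ± 0.23. Of 22 genes of RNA polymerase III, which makes 5S ribosomal RNA, 12 were higher (median 0.65), with POLR3G at 2.52 ± 0.23 and POLR3K at 1.67 ± 0.20. All 10 noncoding snoRNA host genes in the table were higher (median 1.42), with GAS5 at 1.29 ± 0.17 and SNHG5 at 1.30 ± 0.18. At 72 h GAS5 was higher than untreated in both states, by 1.05 ± 0.17 in MYCN-high and 0.73 ± 0.17 in MYCN-low cells (edgeR adjusted p = 0.00019 and 0.00649). The difference between these responses did not pass the threshold (0.33 ± 0.24, edgeR adjusted p = 0.384). The 10 cell-cycle genes were higher in 3 cases between the untreated states (background 16.5%, median 0.26), and in 10 cases at 8 days (background 23.4%, median 2.77).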

How the data were processed

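RNA-seq libraries were read from a table of whole-number counts per gene deposited by the authors. Reads were aligned with STAR 2.4.0h1 to hg19 and counted with HTSeq, per the submitters' processing notes; the annotation and strand setting are not given in the sources used here. The table holds 23367 genes and 92 ERCC spike-in RNAs, and columns were matched to samples by name.

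Counts were tested with edgeR 4.0.16 (R 4.3.3): filterByExpr, TMM scaling, 1 coefficient for each of 10 groups, the quasi-likelihood test over 14793 genes with 9 residual degrees of freedom, and Benjamini-Hochberg adjustment with a threshold of 0.05 in each of 19 contrasts. Standard errors are approximate, the log2 fold change over the root of F. Alternatives were DESeq2 1.42.0 (size factors and the Wald test), no filter, the replicate letter as a block, spike-in scaling, and leaving out each of the 19 libraries. The script was tested on simulated counts. With 2 replicates a group, named biological by the labels, precision rests on the spread shared by all groups.

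The members and lists were chosen with earlier results of these data known. All 44 members are named; values in every library are given for fixed key genes and for the extremes of each role between untreated states, and for members whose responses differed between states. WDR43, POLR1A and POLR1D are given in part. An adrenergic marker of the fixed list is not reported here. Promoter sequences are from RefSeq (GRCh38.p14), and exon overlaps and pseudogene names from GENCODE release 29. Pseudogenes by name were found for 10 members: RRN3, NOP56, NHP2, DDX10, PES1, NIP7, DDX18, NCL, NPM1 and LYAR. At least 20% of exonic bases lay in another gene's exons for 5 members: NOP2, PPAN, NHP2, HEATR1 and NIP7. Counts of all these members are less certain. Python 3.11.15 with pandas 2.3.3 and matplotlib 3.10.9 was used for the promoters and figures.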

Additional observations from a re-analysis of the deposited data

Results flagged for a closer look

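The response to doxorubicin in MYCN-high cells minus that in MYCN-low cells passed edgeR's adjusted p of 0.05 for 9 gene and time pairs. At 72 h these were UTP20 (-1.70, log2), EBNA1BP2 (-1.02) and WDR43 (-0.83). At 3 days after washout it was UTP20 (-1.0). At 8 days they were FBL (1.54) and NHP2 (1.15), and at 14 days NHP2 (1.52), FBL (1.33) and MRTO4 (1.11). These are 6.82%, 2.27%, 4.55% and 6.82% of the 44 members in order of time, against 4.06%, 2.48%, 4.41% and 4.87% of all tested genes in the same direction. In 6 of the 9 the call was lost in some fit without a library, the exceptions being UTP20 at 72 h, FBL at 8 days and NHP2 at 14 days. On the spike-in scale the sign turned at 72 h, 3 days and 14 days, and not at 8 days.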

How the results depend on the processing

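On the spike-in scale 0 members passed in either direction in any comparison, except 2 that were lower from 72 h to 14 days in MYCN-high cells (1 by edgeR on the usual scale, POLR1A). DESeq2's Wald test called 13 members lower at 8 days in MYCN-high cells (6 by edgeR), and for the difference between responses 6 at 72 h (3 by edgeR) and 5 at 3 days (1 by edgeR). That last count was 2 with DESeq2's size factors and 3 with no filter, and UTP20 from 72 h to 14 days in MYCN-low cells was lost with the size factors (0 members). The cause was not tested.

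Leaving out each library in turn gave these ranges of members called. In MYCN-high cells 13 to 14 were lower at 3 days (23 with all libraries) and 0 to 3 at 8 days (6). In MYCN-low cells 8 to 21 were lower at 72 h (13), 7 to 20 at 3 days (12), 4 to 26 at 8 days (13) and 10 to 20 at 14 days (10). The differences between responses gave 1 to 19 lower at 72 h (3), 0 to 17 lower at 3 days (1), 1 to 3 higher at 8 days (2) and 1 to 5 higher at 14 days (3), where the lower count went up to 13 and 4 without untreated MYCN-low replicate C (0 with all libraries, and 3 at 8 days by DESeq2's Wald test). From 72 h to 14 days 11 to 15 rose in MYCN-high cells (19) and 0 fell in MYCN-low cells (1). Between the states the counts stayed at 33 to 40.

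With the replicate letter as a block, the counts between states were 41, 39, 40, 43 and 40 in order of time, those of the responses 27, 24, 7 and 0 in MYCN-high and 13, 12, 14 and 10 in MYCN-low cells, and no count moved by over 1.5 times. Over 36 pairs of groups the correlation of replicate deviations ran from -0.208 to 0.315 (median 0.108), with 22 over 0.1 and 1 under -0.1. The main fit did not pair the samples by letter, and the counts with the letter as a block are those given above. PPAN, with at most 32 counts in a library, is limited by depth.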
